A study of Mus musculus with 106 samples.

Results

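Fat cells release their stored triglyceride from lipid droplets, and the 10 genes followed here encode the enzymes that do this, the proteins that hold them back and the coat of the droplet. They were chosen by symbol (*Pnpla2*, *Lipe*, *Mgll*, *Abhd5*, *G0s2*, *Plin1*, *Plin2*, *Plin5*, *Cidea* and *Cidec*), and all 10 were found in each of the 4 count tables, which list 21647 to 23420 genes. The libraries are bulk RNA sequencing of tissues from male C57BL/6J mice. Mice of the cold experiment spent 2 weeks at 10 °C, reached in steps of 18 °C and then 14 °C that lasted 5 days each, and mice of the warm experiment spent 4 weeks at 34 °C. Each had controls at 22 °C (room temperature), and no genotype or drug separated the groups. The labels give an age of 11 weeks for the cold experiment and 12 weeks for the warm experiment and quadriceps.

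In the cold experiment, interscapular brown fat (iBAT), inguinal subcutaneous fat (ingSAT), perigonadal visceral fat (pgVAT), liver, ileum, spleen, brain and hypothalamus had 3 libraries per temperature, and per the methods each library pooled 2 mice. Bone marrow had 6 and spinal cord 5 libraries per temperature, each from 1 mouse. In the warm experiment iBAT, liver, ileum, brain and quadriceps had 3 libraries per temperature. Quadriceps also had 3 libraries at 10 °C, and all 6 of its libraries at 22 °C are used against each temperature. The labels do not say which experiment each of the 6 came from. Per the methods, the cold experiment used mice from Janvier and the warm experiment mice from Charles River, controls included. The quadriceps tests against all 6 may thus mix controls of both suppliers. Over the 106 libraries the totals ran from 4262403 to 62880248 counts, with pgVAT at 22 °C the lowest. Adipocyte markers were present in the brown, inguinal and visceral fat libraries. They summed to 12800 to 42800 CPM (counts of a gene scaled to a common library total) over 8 genes. In this sum 10 °C libraries 1 and 3 of pgVAT lay below every pgVAT control, as given below. The warm and cold experiments used different mice with their own controls, so their levels are not compared with a test. Libraries that stood apart by marker genes included 10 °C libraries 1 and 3 of pgVAT (epididymis), 22 °C library 3 of pgVAT (brown adipocyte), 22 °C library 2 of brain (hepatocyte), 22 °C library 3 of liver (adipocyte and muscle) and 22 °C libraries 1 (pancreas) and 4 (adipocyte) of quadriceps, and their values are given beside the results they touch. Some epididymis markers also ran higher at 10 °C in iBAT and quadriceps, as given with those tissues.

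As background, *Pnpla2* encodes adipose triglyceride lipase, which takes the first fatty acid off a triglyceride, and *Abhd5* encodes its co-activator CGI-58. *G0s2* encodes an inhibitor of that lipase. *Lipe*, hormone-sensitive lipase, acts on the diglyceride that remains, and *Mgll* splits the last monoglyceride. Perilipins coat the droplet: *Plin1* in fat cells, where it holds CGI-58 until beta-adrenergic signals release it, *Plin2* in most cells that store fat, and *Plin5* in tissues that burn it, where it sits between droplets and mitochondria. *Cidea* and *Cidec* encode proteins that let droplets exchange fat and grow, the former known from brown fat and the latter from white fat.

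At 22 °C the levels of the 10 genes, given as CPM per kilobase of exon so that genes can be compared, separated the fat depots from the other tissues for some members and not for others. *Plin1* was nearly equal in the 3 depots, at 352 ± 79.0 in iBAT, 355 ± 50.1 in ingSAT and 352 ± 54.8 in pgVAT (SD, n = 3 each), and at most 2.44 in the other 5 tissues of that table. *Cidea* was highest in iBAT at 2660 ± 484, against 72.0 ± 21.6 in ingSAT and 19.4 ± 29 in pgVAT (SD, n = 3 each). *Cidec* had the opposite order, with 1540 ± 282 in pgVAT, 1240 ± 254 in ingSAT and 771 ± 389 in iBAT, and the ranges of neighbours in this order overlapped. *Plin5* stood at 155 ± 40.4 in iBAT and 54.7 ± 5.73 in liver but at 7.86 ± 1.08 in ingSAT and 6.02 ± 2.32 in pgVAT. *Plin2* was as high in liver (290 ± 18.5) as in iBAT (289 ± 30.7), where the ranges overlapped, and lower in ingSAT (103 ± 37.7) and pgVAT (46.6 ± 5.62).

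The enzymes ran together across the depots. *Pnpla2* had 700 ± 208 in iBAT, 493 ± 94.1 in ingSAT and 458 ± 141 in pgVAT, with overlapping ranges between neighbours, and liver followed at 29.6 ± 7.25 without overlap. *Lipe* lay between 264 and 332 in the depots and *Mgll* between 203 and 231, again with overlapping ranges. *Abhd5* was the lowest of the lipolytic genes in fat, at 35.3 to 39.8. *G0s2* reached 421 ± 32.4 in iBAT, above the range of pgVAT (227 ± 66.5). Quadriceps, in a table scaled apart from these, had *Pnpla2* as its leading member (123 CPM per kilobase) with every other member at 20.8 or below. *Plin1*, *Cidea* and *Cidec* were close to absent in bone marrow, at no more than 0.0259.

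**Figure D1:**
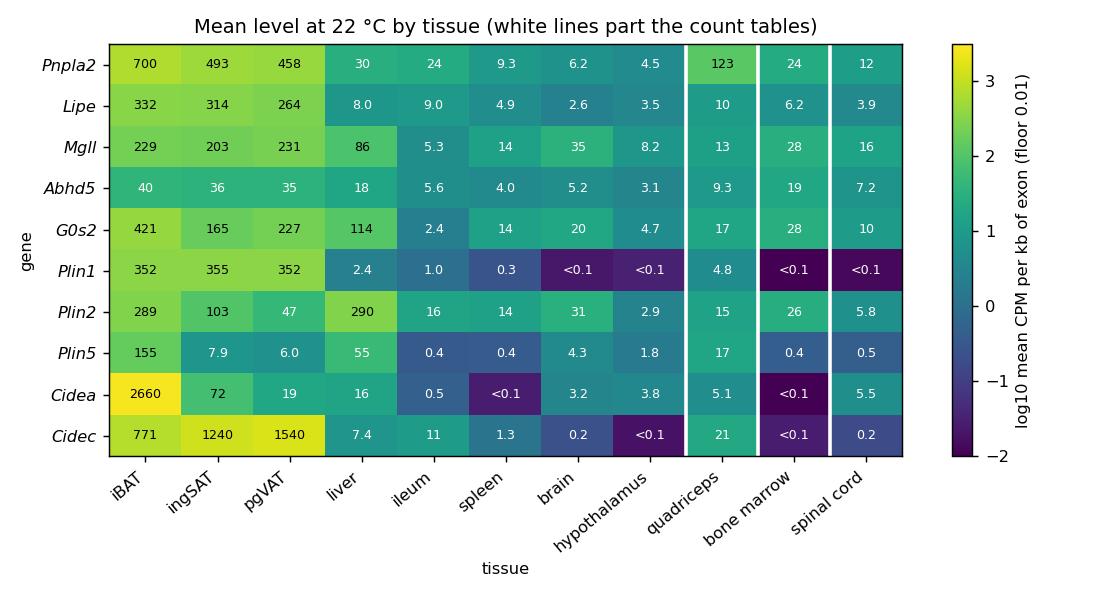
Mean level of the 10 genes (rows) at 22 °C in 11 tissues (columns), as CPM per kilobase of exon, written in each cell and coloured on a log10 scale. White lines part tables that were scaled separately. *Plin1* reads 352 to 355 in all 3 fat depots, while *Cidea* falls from 2660 in iBAT to 19.4 in pgVAT.

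The genes whose mean log2 level followed each member most closely were sought over the 16 tissue and temperature groups of the 8-tissue table, by Pearson correlation among 15887 genes. *Adig* was nearest to *Lipe* (r = 0.995) and to *Plin1* (r = 0.993), with *Adipoq* also near *Plin1* (r = 0.991). *Fabp4* (r = 0.993) and *Adipoq* (r = 0.991) were nearest to *Cidec*. *Plin5* was followed by *Mcat*, *Mrpl17* and *Nubpl* (r = 0.980 to 0.983), and *Cidea* by *Dlat* (r = 0.978) and the skeletal muscle genes *Mb* and *Myh4* (r = 0.960 each). That table holds no muscle libraries, and skeletal muscle markers were present in its iBAT libraries, as given below. Their part in the *Cidea* values of r was not tested. *Scd1* was nearest to *G0s2* (r = 0.974) and *Lipe* to *Pnpla2* (r = 0.987). These points share libraries and tissues, so the values describe these 16 groups and no more.

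Over the 16 comparisons with 22 °C, 140 tests of members could be made, and 12 had an adjusted p under 0.05. These lay in iBAT at both temperatures, in ingSAT, quadriceps and bone marrow at 10 °C, and in none of the other 11 comparisons. Of all genes tested, 11.4% were called in iBAT at 10 °C and 28.6% at 34 °C. The share at 10 °C was 7.57% in ingSAT, 0.347% in quadriceps and 19.1% in bone marrow. It was at most 0.385% in each of the other 11 comparisons. Counts of members at an unadjusted p under 0.05 alone, or by the other tools named below, have no share of all genes beside them. CPM from here on are scaled within each comparison.

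In iBAT at 10 °C the droplet coat gene *Plin2* rose, and the lipases *Pnpla2* and *Lipe* did not pass the test. *Plin2* (chr4:86648386-86670060 on GRCm38) had 766, 821 and 905 CPM in the 3 libraries at 22 °C and 1740, 2430 and 1970 at 10 °C. The groups lay well apart. The log2 fold change (log2FC) was 1.30 with a standard error (SE) of 0.174 and an adjusted p of 0.00272, the p coming from the quasi-likelihood test of edgeR after the Benjamini-Hochberg step. The same test gave every adjusted p that follows unless another is named. It was the 1 member called of 10 tested, where 11.4% of the 12793 genes tested were called. At the cutoffs of the study (a change above 1.5-fold and p up to 0.05 with no adjustment) it was 3, where 13.2% of genes passed. The change held in all 12 alternatives, at 1.13 to 1.41. The median log2FC of the members was 0.02, beside -0.0133 over all genes.

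*Mgll* had 766, 831 and 1250 CPM at 22 °C and 1400, 1830 and 1590 at 10 °C, with each cold library above each control. Its log2FC of 0.77 (SE 0.213) had an adjusted p that rounds to 0.05 and did not pass the limit. *G0s2*, the inhibitor of the first lipase, had 323, 310 and 268 CPM at 22 °C and 114, 240 and 175 at 10 °C, each cold library below each control. Its log2FC was -0.77 (SE 0.237, adjusted p = 0.0696). Both had an adjusted p under 0.05 by edgeR's exact test and by DESeq2. *G0s2* was also called without 10 °C library 2, and *Mgll* without 22 °C library 3.

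The other 7 members did not pass the test either. *Pnpla2* had 1250 to 2200 CPM at 22 °C and 1870 to 2170 at 10 °C, a log2FC of 0.25 (SE 0.215), and *Lipe* 1220 to 1920 and 1460 to 1950, a log2FC of 0.07. *Cidea* had 2430 ± 389 CPM at 22 °C and 2380 ± 116 at 10 °C (SD, n = 3 each), and *Plin5* 264 ± 63.3 and 244 ± 39.6. *Abhd5*, *Plin1* and *Cidec* had log2FC values of 0.22, -0.24 and -0.03. The brown adipocyte markers summed to 6010 to 10700 CPM at 22 °C and 12400 to 16100 at 10 °C, the adipocyte markers to 12800 to 13900 and 13000 to 14600, and the skeletal muscle markers to 6490 to 8960 and 2510 to 5200. Of 8 epididymis markers 4 were tested in iBAT, with 2 called higher and a median log2FC of 8.71. The part of all these markers in the results was not tested. Scaling by library size alone moved the median of all genes to -0.18 and the calls from 835 higher and 621 lower to 489 higher and 1443 lower. With that scaling *Plin2* had a log2FC of 1.13 and *G0s2* one of -0.96.

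Of the other droplet genes, 3 of 15 tested rose and 1 fell (median log2FC -0.02, beside -0.0133 over all genes). *Acsl3*, an acyl-CoA ligase on growing droplets, rose by a log2FC of 0.55. Among the genes that control lipolysis, 1 of 17 rose and 3 fell (median -0.21). *Gnas*, the stimulatory G protein, fell by 1.28 on the log2 scale, and *Hcar1*, the lactate receptor that restrains lipolysis, by 1.29. The *Gnas* row held 137 ± 13.5 CPM at 22 °C in this table and 3980 ± 640 in that of the warm experiment (SD, n = 3 each), and what sets these apart was not tested. In the list of other hydrolases and fatty acid handling genes, 3 of 14 rose and 2 fell (median -0.14). *Fabp5*, *Ddhd2* and *Lipa* rose (log2FC values of 1.15, 0.90 and 0.78) and *Ces1f* fell by 0.65. *Fabp1* was also called lower, with 1.92 to 3.76 CPM at 22 °C and no count in the 3 libraries at 10 °C. Of 5 hepatocyte markers tested 4 were called lower, *Alb* by a log2FC of -7.46, and their part in the *Fabp1* value was not tested.

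In ingSAT at 10 °C *Plin5* and *Cidea*, low at 22 °C, rose several-fold. *Plin5* (chr17:56111601-56117596) had 17.9, 19.4 and 15.3 CPM at 22 °C and 57.9, 60.8 and 58.2 at 10 °C. The spread within each temperature was small beside the gap, and the log2FC was 1.75 (SE 0.125, adjusted p = 0.00229). *Cidea* (chr18:67343604-67367785) had 98.9, 101 and 57.4 CPM at 22 °C and 557, 576 and 516 at 10 °C, a log2FC of 2.68 (SE 0.238, adjusted p = 0.00388). The cold level of *Cidea* was 6.42-fold the control level by the fit. These were the 2 members called of 10 tested, where 7.57% of 13977 genes were called, and both held in all 12 alternatives. The median log2FC of the members was 0.10, beside -0.0134 over all genes.

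*Plin2* had 487, 442 and 231 CPM at 22 °C and 1090, 865 and 804 at 10 °C, a log2FC of 1.25 (SE 0.296) whose adjusted p of 0.0509 missed the limit, and which was past it in 7 of 12 alternative fits. *G0s2* had 185, 102 and 176 CPM at 22 °C and 251, 316 and 267 at 10 °C, each cold library above each control, with a log2FC of 0.85 (SE 0.236, adjusted p = 0.0733). *Lipe* had 1960, 2290 and 1670 CPM at 22 °C and 1520, 1090 and 1220 at 10 °C, with no overlap and a log2FC of -0.63 (adjusted p = 0.108). The exact test and DESeq2 called *Lipe*, *G0s2* and *Plin2* too, which makes 5 members. The share of all genes called by these tools is not given. The cutoffs of the study also passed 5, where 16.4% of genes passed. Leaving out 22 °C library 3 added *G0s2* and *Plin2* to the calls, which makes 4. *Pnpla2*, *Mgll* and *Abhd5* moved by -0.17, 0.09 and 0.12 on the log2 scale, and *Plin1* and *Cidec* by -0.43 and -0.51, the lowest adjusted p among these being 0.186. For *Cidec* each cold library lay below each control, at 1530 to 2080 CPM against 2160 to 2990.

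The 8 adipocyte markers had a median log2FC of -0.26, with 1 called lower, and summed to 29900 to 36400 CPM at 22 °C and 28600 to 34800 at 10 °C. Within that sum *Fabp4* went from 11000 ± 3520 to 18000 ± 229 CPM and *Cfd* from 15200 ± 1180 to 7550 ± 2120 (SD, n = 3 each), neither of them called. The brown adipocyte markers summed to 129 to 173 CPM at 22 °C and 1900 to 2520 at 10 °C, and 5 of 6 tested were called higher. Skeletal muscle markers summed to 1180 to 2990 CPM at 22 °C and 27.5 to 1760 at 10 °C, and none of 4 hepatocyte markers tested was called. Their part in the result was not tested. In bulk tissue, more cells of a type and more RNA per cell cannot be told apart.

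Among the other droplet genes in ingSAT, 2 of 15 tested rose and 2 fell (median log2FC -0.02, beside -0.0134 over all genes). *Clstn3*, whose fat-specific product acts on droplet form, went from 37.3 ± 15.3 to 109 ± 5.45 CPM, and *Acsl3* from 18.4 ± 3.73 to 46.7 ± 14.7. *Plin4* fell from 3480 ± 379 to 1550 ± 227 and *Cavin1*, a caveola coat protein, from 929 ± 74.6 to 400 ± 69.1. Of 17 control genes 1 rose and 2 fell (median -0.17), the latter being the anti-lipolytic receptors *Hcar1* and *Hcar2*, by 1.42 and 1.39 on the log2 scale. Of 13 handling genes 4 rose and 1 fell (median 0.18). *Gk*, glycerol kinase, which lets a cell reuse the glycerol set free, had the smallest adjusted p of these, with 13.5 ± 0.350 CPM at 22 °C and 82.7 ± 14.2 at 10 °C (log2FC 2.62, adjusted p = 0.00199). *Fabp5* rose by a log2FC of 1.39.

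No member was called of 10 tested in pgVAT at 10 °C by edgeR's quasi-likelihood test, its exact test or DESeq2, and 0 members had an unadjusted p under 0.05. Of 14863 genes 0% were called, and 8.17% passed the study's limits, a change above 1.5-fold with unadjusted p no higher than 0.05. The 3 cold libraries did not resemble each other. Library 2 had 1950 CPM of *Pnpla2*, 1730 of *Plin1* and 4430 of *Cidec*, within or above the controls, while libraries 1 and 3 had 597 and 517 of *Pnpla2*, 749 and 682 of *Plin1*, and 1570 and 1250 of *Cidec*. In these same libraries the 8 epididymis markers summed to 23800 and 26000 CPM, against 3.77 in library 2 and 732 to 2640 at 22 °C. Their adipocyte markers summed to 17800 and 13500 CPM, against 42800 in library 2 and 23500 to 41500 at 22 °C. *Plin2* was above the controls in all 3 cold libraries, at 202, 430 and 211 CPM against 195, 162 and 189 (log2FC 0.63, adjusted p = 0.628). Set against the controls alone, library 2 had a *Plin2* log2FC of 1.30 (SE 0.329, adjusted p = 0.195), an alternative chosen after the data were seen, in which that lone library is assumed to vary like the controls.

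*Cidea* at 22 °C was 1.79 and 5 CPM in libraries 1 and 2 but 65.2 in library 3, where brown adipocyte markers summed to 425 CPM against 27.9 and 45.9 in the other two. At 10 °C it had 4.71, 9.70 and 7.42. *Plin5* had 12.0, 9.99 and 19.9 CPM at 22 °C and 16.2, 20.2 and 16.2 at 10 °C, so the groups overlapped.

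**Figure D2:**
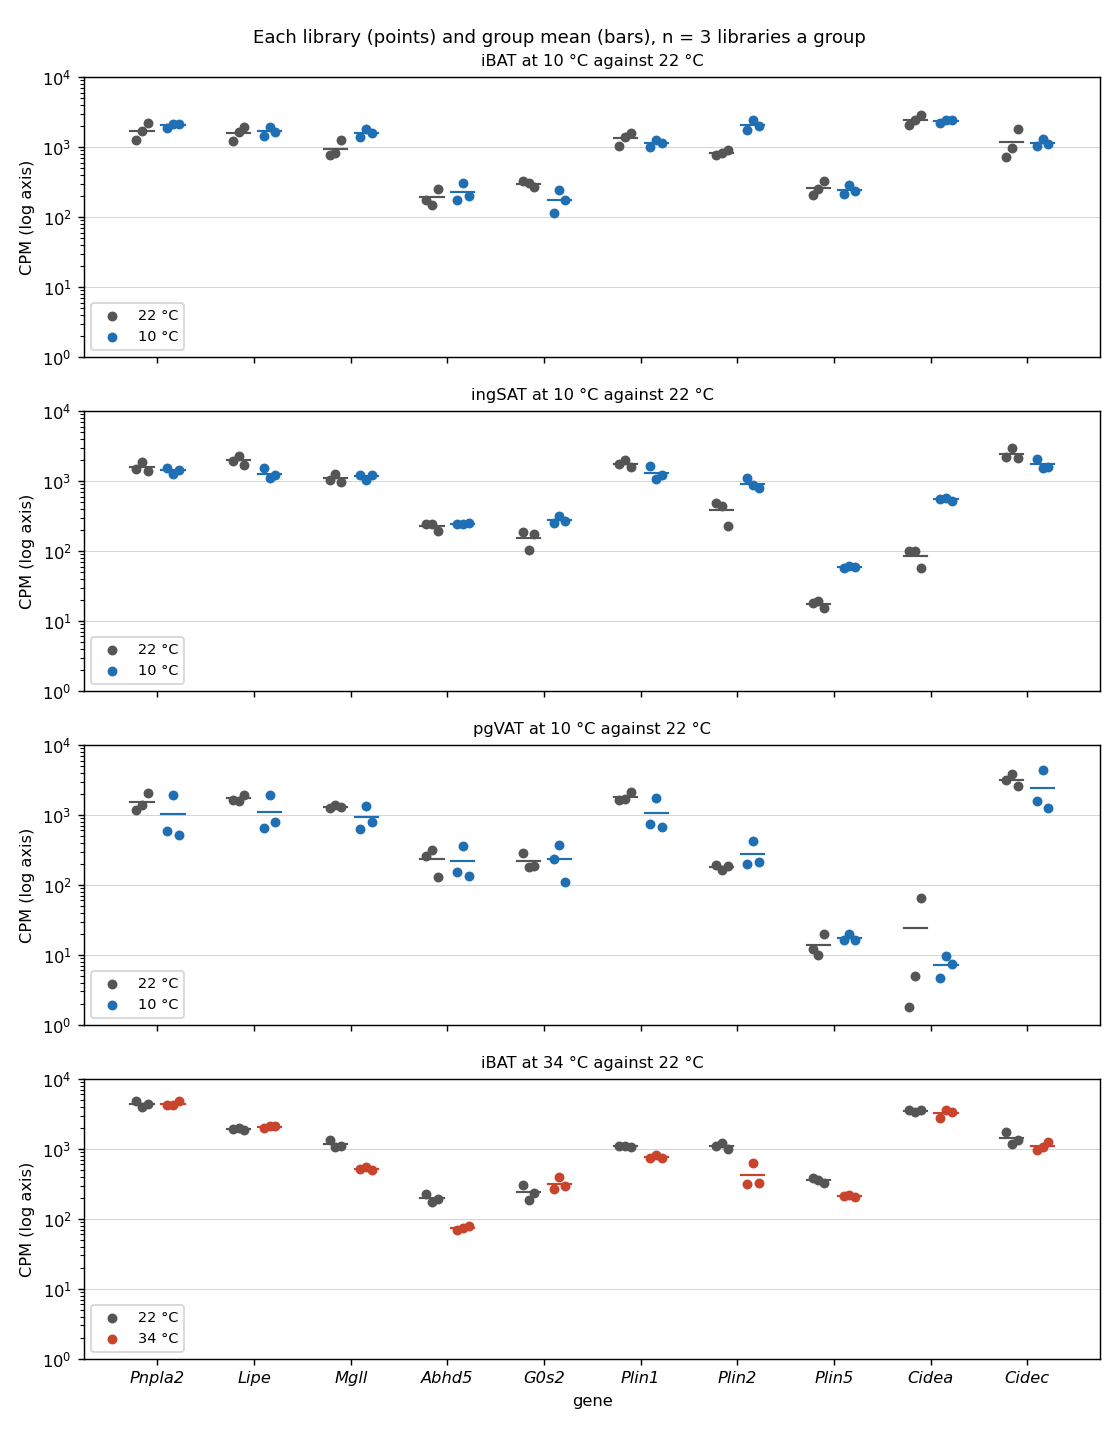
CPM of the 10 genes on a log axis in every library (points) of the 4 comparisons in fat, with group means (bars), n = 3 libraries a group. *Plin5* and *Cidea* of ingSAT and *Plin2* of iBAT stand apart at 10 °C, the pgVAT cold libraries are scattered, and *Mgll*, *Abhd5*, *Plin2* and *Plin5* of iBAT lie lower at 34 °C.

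Whether the cold change differed between depots was tested in 1 model over the 18 fat libraries of the cold experiment. *Plin5* was the 1 member whose change differed between ingSAT and iBAT, by 1.85 on the log2 scale (SE 0.327, adjusted p = 0.0478), where 0.083% of 14458 genes were called. The difference ran from 1.64 to 2.04 over 22 alternatives, and the adjusted p was under 0.05 in 9 of them and up to 0.161 in the rest. The call was lost without any 1 ingSAT library, without any 1 of the 10 °C iBAT libraries, without 22 °C library 2 or 3 of iBAT, and without 22 °C library 1 of pgVAT. Without the pgVAT libraries, an alternative chosen after seeing them, 3 members differed between ingSAT and iBAT, where 3.61% of 13614 genes were called. These were *Plin5* (1.93, adjusted p = 0.00271), *Cidea* (2.78, adjusted p = 0.000594) and *G0s2* (1.68, SE 0.368, adjusted p = 0.0303). The test is of the difference alone, and the separate *G0s2* changes of 0.85 in ingSAT and -0.77 in iBAT were not called. In the fit with pgVAT the difference of *G0s2* was 1.60 (SE 0.527, adjusted p = 0.283) and that of *Cidea* 2.71 (SE 1.11, adjusted p = 0.402). *Plin2* had a difference of -0.06 (SE 0.439) between the same depots, which does not show that they changed alike. Between pgVAT and iBAT, where 0.311% of genes were called, and between pgVAT and ingSAT, where 0.131% were called, no member was called. In these the lowest adjusted p values were 0.151 for *Mgll* (-1.25) and 0.128 for *Plin5* (-1.40). Without 10 °C library 2 of pgVAT, which leaves the libraries with the epididymis markers, 5 members were called between pgVAT and iBAT (*Pnpla2*, *Lipe*, *Mgll*, *Plin1* and *Plin2*) and 3 between pgVAT and ingSAT (*Pnpla2*, *Plin5* and *Cidea*). The share of all genes called in that fit is not given, and the shares above are those of the fit with all libraries.

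The ratio of *G0s2* to *Pnpla2* counts within a library does not depend on the scaling. As log2 values it was -1.95, -2.47 and -3.04 in iBAT at 22 °C and -4.03, -3.17 and -3.59 at 10 °C, a difference of -1.11. In ingSAT it was -3.03, -4.21 and -2.96 at 22 °C and -2.61, -2 and -2.45 at 10 °C, a difference of 1.05, which was 0.64 without 22 °C library 2. In both depots the groups did not overlap (exact permutation test, two-sided, p = 0.1, the smallest that 3 against 3 libraries can give). In pgVAT the difference was 0.80 (exact permutation p = 0.3) with overlap. The same exact test gave p = 0.2 in iBAT at 34 °C, where the difference was 0.37.

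The mean log2 ratio of *Cidea* to *Cidec* was highest in iBAT and lowest in pgVAT at both temperatures. At 22 °C ingSAT and pgVAT were barely apart, with -5.23 in ingSAT library 3 and -5.29 in pgVAT library 3. The latter is the library with the higher brown adipocyte markers. In ingSAT it went from -4.50, -4.89 and -5.23 at 22 °C to -1.90, -1.41 and -1.61 at 10 °C, a difference of 3.23 (exact permutation p = 0.1, two-sided, the smallest possible). In iBAT it had a mean of 1.16 at 22 °C and 1.07 at 10 °C, with overlapping libraries and a difference of -0.09 (exact permutation p = 0.8). The cold ingSAT value thus stayed below every iBAT library, the lowest of which was 0.65. In pgVAT all 6 libraries lay between -10.72 and -5.29, and the difference of 0.33 became 1.94 without 22 °C library 3 and -0.77 without 22 °C library 1. In total 8 ratios were compared, and none could reach a p under 0.05.

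**Figure D3:**
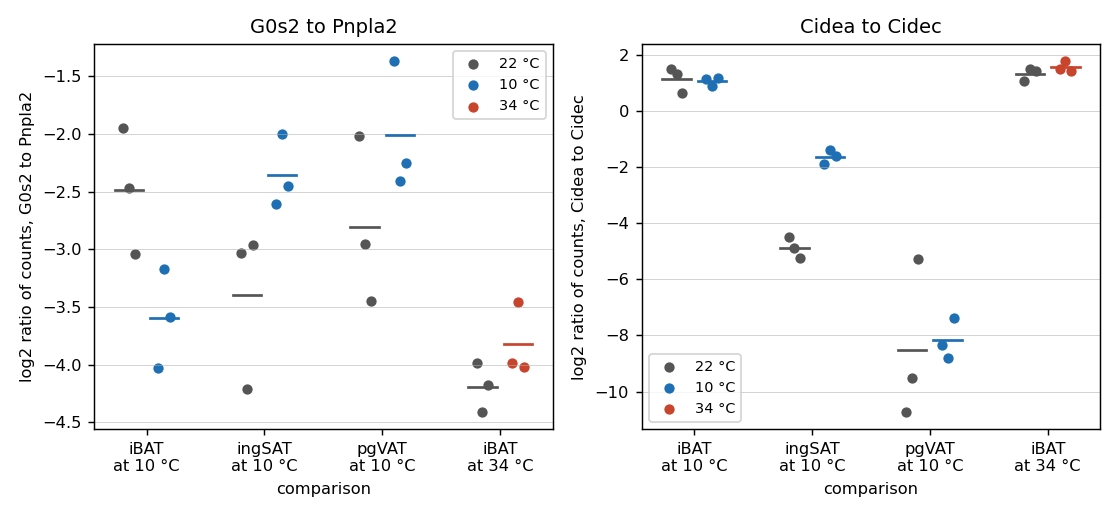
Log2 ratio of counts of *G0s2* to *Pnpla2* (left) and *Cidea* to *Cidec* (right) in each library (points) with group means (bars), for 3 depots at 10 °C and iBAT at 34 °C, each against 22 °C. The left ratio changes by -1.11 in iBAT and by 1.05 in ingSAT in the cold, and the right ratio by 3.23 in ingSAT.

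The last enzyme of lipolysis, the co-activator of the first and the 3 perilipins of the set fell in iBAT at 34 °C, while the lipases *Pnpla2* and *Lipe* and the droplet proteins *Cidea* and *Cidec* did not pass the test. *Abhd5* (chr9:122351608-122381524) had 225, 176 and 194 CPM at 22 °C and 70.3, 74.6 and 78.8 at 34 °C, a log2FC of -1.41 (SE 0.114, adjusted p = 0.000956). *Mgll* (chr6:88724412-88828360) had 1330, 1060 and 1110 CPM at 22 °C and 515, 559 and 492 at 34 °C, a log2FC of -1.16 (SE 0.122, adjusted p = 0.00156). In both genes every warm library lay below every control by a wide gap. *Plin2* had 1100, 1220 and 991 CPM at 22 °C and 312, 620 and 325 at 34 °C, a log2FC of -1.40 (SE 0.268, adjusted p = 0.00992), with library 2 the highest of the warm ones. *Plin5* had 382, 356 and 331 CPM at 22 °C and 211, 221 and 206 at 34 °C (log2FC -0.74, adjusted p = 0.00263). *Plin1* (chr7:79720218-79732903) had 1100, 1110 and 1070 CPM at 22 °C and 748, 829 and 731 at 34 °C (log2FC -0.50, adjusted p = 0.00973).

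These were 5 members called of 10 tested, all lower, where 28.6% of 12318 genes were called and 15.9% were called lower. The median log2FC of the members was -0.43, beside 0.0109 over all genes, and leaving out any 1 library left 5 members called. *Pnpla2* had 4870, 3910 and 4320 CPM at 22 °C and 4230, 4290 and 4850 at 34 °C, a log2FC of 0.03 (SE 0.124). *Lipe* had 1860 to 1990 CPM at 22 °C and 1990 to 2150 at 34 °C, a log2FC of 0.12 (SE 0.0953). *Cidea* had 3490 ± 134 CPM at 22 °C and 3260 ± 463 at 34 °C, and *Cidec* 1410 ± 273 and 1110 ± 149 (SD, n = 3 each). *G0s2* had 307, 184 and 238 CPM at 22 °C and 267, 391 and 300 at 34 °C (log2FC 0.39, adjusted p = 0.195).

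The falls in *Mgll*, *Abhd5*, *Plin2* and *Plin5* were called in all 11 alternatives. That of *Plin1* kept its direction in all 11 and was called in 10. Scaling by library size alone moved the median of all genes to 0.297 and the calls from 1570 higher and 1959 lower to 4223 higher and 686 lower. On that scale *Plin1* had a log2FC of -0.22 (adjusted p = 0.085) and was not called, while *Lipe* (0.40, adjusted p = 0.0101) and *G0s2* (0.67, adjusted p = 0.0346) were called higher. The brown adipocyte markers summed to 8090 to 11600 CPM at 22 °C and 3640 to 4080 at 34 °C, and the adipocyte markers to 13600 to 16300 and 13100 to 14900. Skeletal muscle markers ranged from 3.22 to 4760 at 22 °C and from 1010 to 3820 at 34 °C, and their part in the result was not tested.

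**Figure D4:**
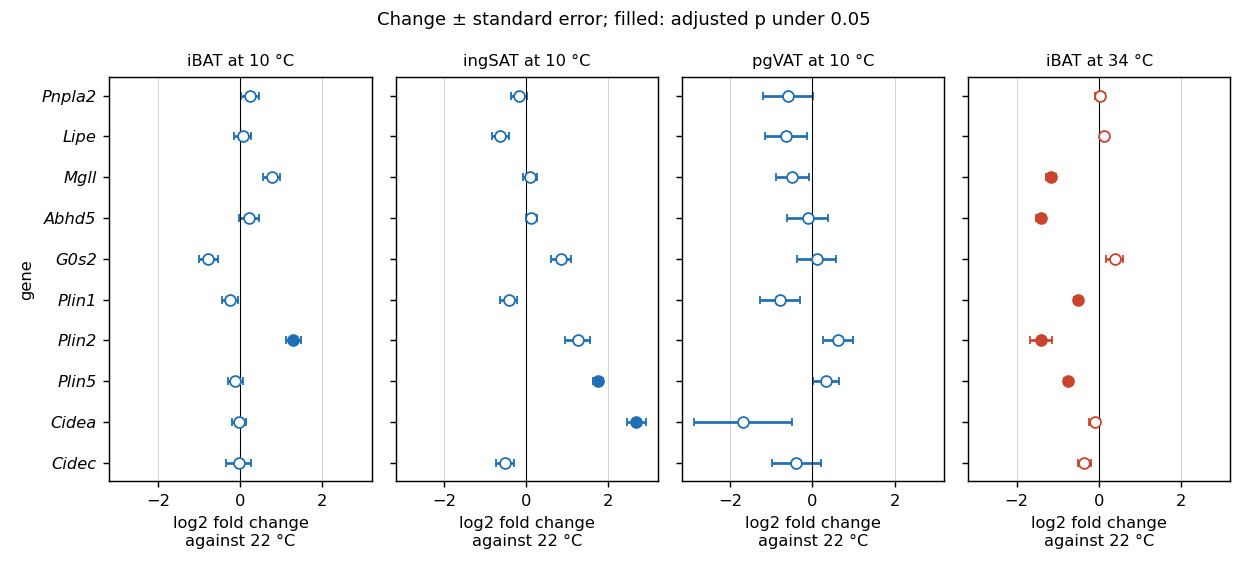
Log2 fold change (points) with its SE (bars) of the 10 genes against 22 °C in iBAT, ingSAT and pgVAT at 10 °C and iBAT at 34 °C, with filled points where the adjusted p was under 0.05. The 5 filled points at 34 °C all lie below 0, from -0.50 to -1.41, and *Cidea* of ingSAT lies at 2.68.

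The reference windows before the start sites of the members were searched for short motifs. RefSeq start sites on GRCm38.p6 were matched for 9 of the 10 genes, giving 13 windows of 250 bases. AGGTCA, the core letters that nuclear receptors such as the PPAR family bind, was found on either strand before *Abhd5*, *Plin2* and *Plin5*, and 14% of all 32851 windows hold it. CACGTG, an E-box, was found before *Mgll* and in the window of *Lipe*, which lies within the annotated gene, and 6.02% of all windows hold it. TGACG, part of the cAMP response element, was before *Abhd5* and *G0s2* (17.8% of all windows), and CCAAT before *Plin2* and *Plin5* (33.8% of all windows). Before *Plin1*, which also fell, none of these motifs was found. The matches are of letters, not sites of binding. The 4 windows shown are those of members that fell at 34 °C with an AGGTCA or CACGTG match, written 5′ to 3′ on the strand of the gene with that match in capitals (TGACCT is AGGTCA on the other strand). They are cut where the annotated gene begins. Coordinates are chr6:88724162-88724411 (plus strand) for *Mgll*, chr9:122351366-122351607 (plus strand) for *Abhd5*, chr4:86670061-86670309 (minus strand) for *Plin2* and chr17:56117597-56117798 (minus strand) for *Plin5*.
Mgll promoter: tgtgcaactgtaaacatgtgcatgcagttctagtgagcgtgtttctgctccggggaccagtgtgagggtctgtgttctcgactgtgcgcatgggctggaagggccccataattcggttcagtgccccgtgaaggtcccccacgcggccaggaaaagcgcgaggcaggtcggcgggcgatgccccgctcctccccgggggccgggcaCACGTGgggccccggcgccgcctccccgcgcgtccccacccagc
Abhd5 promoter: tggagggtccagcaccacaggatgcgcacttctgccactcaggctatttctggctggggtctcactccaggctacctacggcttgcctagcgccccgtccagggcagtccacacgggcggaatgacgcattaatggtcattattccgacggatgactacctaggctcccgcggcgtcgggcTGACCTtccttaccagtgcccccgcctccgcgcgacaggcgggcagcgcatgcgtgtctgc
Plin2 promoter: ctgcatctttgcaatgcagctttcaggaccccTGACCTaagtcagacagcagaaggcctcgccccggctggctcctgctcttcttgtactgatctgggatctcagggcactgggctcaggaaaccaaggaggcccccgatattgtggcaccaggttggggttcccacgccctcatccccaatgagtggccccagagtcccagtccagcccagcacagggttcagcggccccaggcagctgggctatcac
Plin5 promoter: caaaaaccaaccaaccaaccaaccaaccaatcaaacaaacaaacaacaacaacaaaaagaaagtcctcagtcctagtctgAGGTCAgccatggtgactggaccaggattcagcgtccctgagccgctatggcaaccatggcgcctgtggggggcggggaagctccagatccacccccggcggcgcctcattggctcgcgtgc
The CACGTG of *Mgll* begins at -44 from the start site, and AGGTCA begins at -69 in *Abhd5*, -218 in *Plin2* and -170 in *Plin5*.

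Among the other droplet genes in iBAT at 34 °C, 3 of 14 tested rose and 5 fell (median log2FC -0.03, beside 0.0109 over all genes), where 28.6% of all genes were called and 15.9% were called lower. *Clstn3* fell from 479 ± 18.1 to 205 ± 35.4 CPM and *Bscl2*, the seipin gene, from 314 ± 39.3 to 157 ± 14.8 (SD, n = 3 each). Among 15 control genes tested, 3 rose and 4 fell (median -0.02). The natriuretic peptide receptors *Npr3* and *Npr1* rose by log2FC values of 1.66 and 1.09. *Adcy3*, an adenylate cyclase, fell from 356 ± 45.4 to 137 ± 27.8. Of 12 handling genes 7 were called lower and 0 higher (median -0.87). *Ddhd2* fell from 367 ± 39.5 to 108 ± 5.97 and *Acsl1*, the main acyl-CoA ligase of brown fat, from 3520 ± 187 to 1380 ± 141.

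In quadriceps at 10 °C the inhibitor *G0s2* rose 2.14-fold by the fit. It had 8.98, 11.2 and 14.7 CPM (lowest, median and highest) in the 6 libraries at 22 °C and 23.2, 26.3 and 23.9 at 10 °C, with no overlap and a log2FC of 1.09 (SE 0.130, adjusted p = 0.00686). It was the 1 member called of 10 tested, where 0.347% of 11824 genes were called. At the cutoffs of the study 6 passed, where 3.27% of genes did. Against only the 3 controls that share a column name prefix with the cold libraries it was 1.12 (adjusted p = 0.0276), where 0.0592% of genes were called. It was not called without 10 °C library 2 (adjusted p = 0.052). Without 10 °C library 3, *Mgll* and *Plin2* were called too, which makes 3, and without 22 °C library 1 or 4, *Plin2* or *Cidea* was called beside it.

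*Cidea* in quadriceps had 1.58, 1.83 and 15.4 CPM (lowest, median and highest) at 22 °C and 46.9, 35.9 and 12.3 at 10 °C. The log2FC was 2.82 (SE 0.714, adjusted p = 0.131) against all 6 controls and 4.17 (SE 0.478, adjusted p = 0.0474) against 3 of them. The high control is library 4, whose column name shares its prefix with the 34 °C columns, and the 3 used for the second value share theirs with the 10 °C columns. The labels do not state this split of the controls. *Plin2* had 34.3, 41.8 and 46.4 CPM (lowest, median and highest) at 22 °C and 99.0, 79.5 and 49.6 at 10 °C, without overlap (log2FC 0.90, adjusted p = 0.0677). *Plin1* had 11.3 to 33.6 CPM at 22 °C and 38.5, 49.1 and 14.9 at 10 °C (log2FC 0.96, adjusted p = 0.355). *Pnpla2*, *Abhd5* and *Plin5* moved by 0.21, 0.03 and -0.08 on the log2 scale, and *Mgll*, *Lipe* and *Cidec* by 0.64, 0.43 and 0.96.

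Adipocyte markers summed to 983 and 1150 CPM in 10 °C libraries 1 and 2, 427 in library 3 and 286 to 749 at 22 °C. *Plin1*, *Plin2*, *Cidea* and *Cidec* were higher in cold libraries 1 and 2 than in library 3, and *G0s2* was at 23.9 CPM in library 3, where the adipocyte sum was within the control range. Counts of *Cidea* per count of *Plin1* were 1.22, 0.731 and 0.826 at 10 °C and 0.0875 to 0.458 at 22 °C, a comparison made after the values were seen. Of the brown adipocyte markers 6 were tested, with a median log2FC of 1.16, and *Elovl3* was called higher. *Ucp1* had 28, 94.8 and 120 CPM (lowest, median and highest) at 10 °C and 0.0484 to 6.93 at 22 °C, without overlap. *Cox7a1* and *Cox8b*, which are also high in muscle, overlapped between the groups. Pancreas acinar markers summed to 2280 CPM in 22 °C library 1, 11.5 in library 2 and at most 0.716 in the other libraries, and *G0s2* was also called without library 1 (log2FC 1.10). Of 8 epididymis markers 2 were tested in quadriceps at 10 °C, with a median log2FC of 13.18 and 0 called. Whether any of these markers had a part in the member values was not tested. Among the other pathway genes *Pnpla3* alone was called in quadriceps, from 8.5 ± 2.11 to 37.5 ± 9.73 CPM (log2FC 2.14, adjusted p = 0.00398). At 34 °C no member was called in quadriceps of 10 tested by any of the 3 tools, 2 had an unadjusted p under 0.05, and 0% of 11716 genes were called. The cutoffs of the study passed 2 (*Plin1* and *Cidea*), where 1.24% of genes passed. *Cidea* had 0.837 to 1.12 CPM there, below all 6 controls at 1.55 to 14.9 (log2FC -2.11, adjusted p = 0.854).

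**Figure D5:**
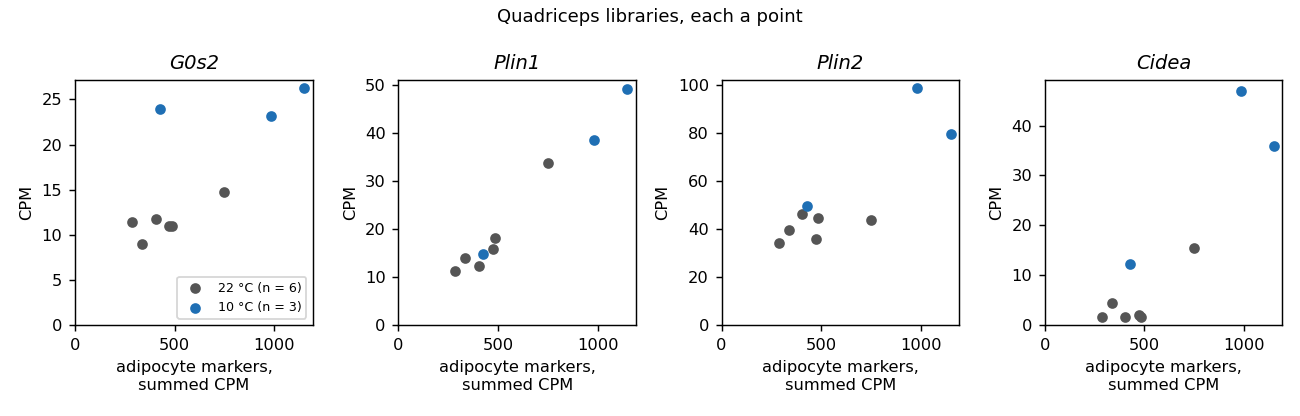
CPM of *G0s2*, *Plin1*, *Plin2* and *Cidea* (y axes) against the summed CPM of 8 adipocyte markers (x axes) in each quadriceps library (points), 6 at 22 °C and 3 at 10 °C. *G0s2* lies at 23.2 to 26.3 in all 3 cold libraries, while *Plin1* is lowest of the cold libraries (14.9) where the marker sum is 427.

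In bone marrow at 10 °C the changes called were small. *Abhd5* had 99.9, 111 and 124 CPM (lowest, median and highest of 6 mice) at 22 °C and 92.2, 97.0 and 104 at 10 °C, a log2FC of -0.21 (SE 0.0505, adjusted p = 0.011). *Lipe* had 29.7, 36 and 42.2 CPM at 22 °C and 28.4, 30.7 and 33.7 at 10 °C (log2FC -0.24, adjusted p = 0.03). *Mgll* had 127, 142 and 154 CPM at 22 °C and 146, 163 and 170 at 10 °C (log2FC 0.20, adjusted p = 0.0257). In each of these the 2 groups overlapped. They were 3 members called of 6 tested, where 19.1% of 12525 genes were called, and none passed the cutoffs of the study, where 1.26% of genes did. *G0s2* had a log2FC of -0.28 (adjusted p = 0.0521) and *Plin2* of -0.15. Of the cell type markers tested, 5 of 5 myeloid ones were called lower (sums of 26800 to 39600 CPM at 22 °C and 24600 to 27200 at 10 °C), and 3 of 3 erythroid, 3 of 5 B and T cell and 2 of 4 adipocyte ones higher. Their part in the member values was not tested. *Plin1*, *Plin5*, *Cidea* and *Cidec* were under the expression limit, *Cidea* with no count in any of the 12 libraries. In the other lists, *Plin3*, *Hsd17b11*, *Ces1d*, *Dgat1* and *Dgat2* fell by 0.21 to 0.60 on the log2 scale and *Pparg* rose by 0.52, from 9.07 ± 2.42 to 13 ± 1.54 CPM (SD, n = 6 each).

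In liver no member was called at 10 °C, of 10 tested, where 0% of 12028 genes were called. DESeq2 called 1 (*Mgll*), and 3 had an unadjusted p under 0.05. *Plin2*, the main hepatic perilipin, had 529 to 589 CPM at 22 °C and 475 to 548 at 10 °C (log2FC -0.10). *Pnpla2* had 42.1 to 62.1 CPM at 22 °C and 33 to 39.0 at 10 °C, and *Plin5* 56.2 to 68.5 and 49.2 to 53.7, both without overlap but with adjusted p of 0.178 and 0.142. The 22 °C library 3 held 17.9 CPM of *Plin1*, 28 of *Cidea* and 17.5 of *Cidec*, against at most 0.300, 0.6 and 3.06 in the other controls, beside 176 CPM of adipocyte markers (28.1 and 29.2 in the other controls) and 82.3 of skeletal muscle markers. Without it the log2FC of *Cidec* was 0.36 in place of -1.26, that of *Cidea* 2.10 in place of -2.20 and that of *Pnpla2* -0.24 in place of -0.44, none of them called. At 34 °C no member of 8 tested was called in liver, where 0.385% of 11179 genes were. DESeq2 and the exact test called 1 (*Mgll*), 3 had an unadjusted p under 0.05, and the cutoffs of the study passed 1 (*Plin2*), where 3.39% of genes passed. *Mgll* had 159 to 210 CPM at 22 °C and 121 to 130 at 34 °C, without overlap (log2FC -0.58, SE 0.109, adjusted p = 0.0844), and *Plin2* 397 to 649 and 246 to 377 (log2FC -0.59, adjusted p = 0.345).

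In ileum at 10 °C no member of 8 tested was called, where 0.0781% of 14081 genes were. DESeq2 and the exact test called 1 (*Pnpla2*), and 5 had an unadjusted p under 0.05. The share of all genes under that unadjusted limit is not given, so the 5 have no background. The cutoffs of the study passed 2, where 2.73% of genes passed. *Pnpla2* had 67.5 to 74.8 CPM at 22 °C and 83.0 to 104 at 10 °C (log2FC 0.40, adjusted p = 0.131), and *G0s2* 1.38 to 2.73 and 3.25 to 4.77 (log2FC 0.93, adjusted p = 0.182), both without overlap. *Plin1* and *Cidec* had log2FC values of 1.02 and 0.99. The 8 adipocyte markers had a median log2FC of 1.33 with 0 called, and summed to 64.1 to 132 CPM at 22 °C and 122 to 386 at 10 °C. Their part in these values was not tested. At 34 °C *Pnpla2* had 195 to 213 CPM at 22 °C and 131 to 154 at 34 °C (log2FC -0.50, SE 0.0903, adjusted p = 0.602). None of 8 members was called there by edgeR, DESeq2 called 1 (*Pnpla2*), 2 had an unadjusted p under 0.05, and 0% of 13020 genes were called. *Plin5* and *Cidea* were under the expression limit in ileum. In spleen no member of 9 tested was called by any of the 3 tools, where 0.0921% of 14113 genes were, and 1 had an unadjusted p under 0.05. *Abhd5* had 28.5 to 37.1 CPM at 22 °C and 24.4 to 27.1 at 10 °C (log2FC -0.40, adjusted p = 0.477).

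*Mgll*, which in brain also degrades the endocannabinoid 2-arachidonoylglycerol, had the highest level per kilobase of the members in brain, hypothalamus and spinal cord at 22 °C. No member was called in spinal cord (8 tested, 0.00695% of 14383 genes called), in hypothalamus (8 tested, 0% of 14526), or in brain at 10 °C (8 tested, 0% of 14416) and at 34 °C (7 tested, 0% of 13979). The exact test and DESeq2 called none either, and 2 members of spinal cord and 0 of the others had an unadjusted p under 0.05. In spinal cord *Mgll* had 77.6 to 81.6 CPM in 5 mice at 22 °C and 66.9 to 73.5 in 5 mice at 10 °C, without overlap (log2FC -0.15, SE 0.0396, adjusted p = 0.779). *Cidea* was measurable in all nervous tissues, with 4.22 to 7.26 CPM over the spinal cord libraries and 4.84 to 6.07 over the hypothalamus libraries, while *Plin1* and *Cidec* were under the expression limit. The brain library 2 at 22 °C held 382 CPM of *Plin2*, 31.3 of *Plin5* and 48.1 of *G0s2*, against at most 11.5, 1.08 and 7.53 in the other 2 controls. In that library hepatocyte markers summed to 67500 CPM, against 737 and 1100. With it the log2FC values were -3.55, -3.39 and -1.81, and without it 0.04, 0.02 and -0.20, and no member was called either way.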

How the data were processed

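The authors aligned reads to mm10 with STAR, counted them per gene with HTSeq and deposited whole-number counts without scaling. The submitters' processing notes name STAR 2.5.3a, HTSeq 0.6p1 and Picard 1.141, and the study's methods other releases of STAR and HTSeq. Symbols were matched for 21583 of 21647 identifiers of the 8-tissue table (GENCODE M21). Fits, 1 per comparison, used edgeR 4.0.16 (R 4.3.3): TMM scaling, genes with average log2 CPM above 0, quasi-likelihood F-test, two-sided. Called means a Benjamini-Hochberg adjusted p under 0.05 over all genes tested. Tests were checked on simulated data. Ratios used a prior count of 2. Alternatives were edgeR's exact test, DESeq2 1.42.0, library size only, filterByExpr, every gene with at least 1 count, unadjusted p of at most 0.05 with more than 1.5-fold (the study's limits), leaving out each library, a replicate block and the quadriceps controls.

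The 10 genes and all lists were chosen with earlier results of these data known. Other pathway genes are named where called, at most 8 per comparison by adjusted p. A result for 1 of these genes is not reported here. Nearest genes are the top 3 by Pearson correlation. In the 7-tissue table, libraries were matched to groups by column names. The iBAT libraries of the warm experiment came, per the study's supplement, from single mice but for 1 pool of 2 at 34 °C, while its methods say 2 mice were pooled. Where libraries are pools or of shared cages, p-values measure the spread between libraries. Quadriceps libraries 1 to 3 at 22 °C share a column name prefix with the 10 °C libraries and 4 to 6 with those at 34 °C, a split the labels do not state. Reads carry no molecular identifiers. Strand use in counting is not given in the sources used here, and an antisense gene overlaps the start of *Mgll*.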

Additional observations from a re-analysis of the deposited data

Results flagged for a closer look

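In groups of 4 to 10 libraries, 38 groups were examined and 7 held a library far from the others. Chance alone flags about 1 in 20 independent groups of normally spread values. The groups here share libraries, so that rate cannot be used to judge the 7. Quadriceps library 4 at 22 °C was the highest in 3 of these, with 74.2 CPM of *Lipe* (next 48.0), 33.6 of *Plin1* (next 18.1) and 15.4 of *Cidea* (next 4.45), and its adipocyte markers summed to 749 CPM, the highest of the 6 controls. *G0s2* in bone marrow library 1 at 22 °C was at 29 CPM (next 24.4). In spinal cord, *Pnpla2* was at 31 CPM in 22 °C library 1 (next 36.4), *Mgll* at 66.9 in 10 °C library 3 (next 72.1) and *Abhd5* at 33 in 10 °C library 4 (next 40.4).

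The 10 °C change of *Plin5* differed between ingSAT and iBAT by 1.85 on the log2 scale in a test of the difference itself (edgeR, adjusted p = 0.0478). In further pairs of tissues every 10 °C library lay above the controls in one and below them in the other, and these differences were not tested unless stated. With 3 against 3 libraries, a complete parting has an exact permutation p of only 0.1, two-sided. Over the 97 member tests at 10 °C some such groups arise by chance, and the share over all genes is not given. *G0s2* had log2 fold changes of 0.85 in ingSAT, 1.09 in quadriceps and 0.93 in ileum but -0.77 in iBAT, and the difference between ingSAT and iBAT, which was tested, had an adjusted p of 0.283 (edgeR). *Pnpla2* had 0.40 in ileum and -0.44 in liver, *Mgll* 0.77 in iBAT and -0.15 in spinal cord, and *Abhd5* 0.27 in ileum and -0.40 in spleen. *Plin5* had 1.75 in ingSAT and 0.43 in spleen but -0.30 in liver. Of the values in these pairs only *G0s2* in quadriceps and *Plin5* in ingSAT were called. *Plin5* in spleen rests on 13 to 26 counts a library.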

How the results depend on the processing

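Over 2491 alternative values of single members none reversed a called direction, 2398 kept their side of the threshold, 21 lost a call and 72 gained one. Members called were 1 in iBAT at 10 °C, against 3 by the exact test, DESeq2, with every gene with at least 1 count, and under the study's limits, and 2 by library size only or filterByExpr. They were 2 in ingSAT, against 5 by the exact test, DESeq2 and the study's limits. In quadriceps at 10 °C they were 1, against 3 by the exact test, 4 by DESeq2, 2 with the 3 controls that share their column name prefix and 6 under the study's limits. In liver at 10 °C DESeq2 called 1. In ileum at 10 °C the exact test and DESeq2 called 1 and the study's limits 2, and in ileum at 34 °C DESeq2 called 1. In liver at 34 °C the exact test, DESeq2, every gene and the study's limits each called 1, and in quadriceps at 34 °C the study's limits 2. In bone marrow the study's limits called 0. Between ingSAT and iBAT, 3 were called without the pgVAT libraries, chosen after seeing the data. The share of all genes called is not given for the exact test, DESeq2, the other filters, the replicate block or leaving out 1 library. Nor is the share with an unadjusted p under 0.05 alone. Those counts therefore have no background beside them. The cause of these shifts was not tested.

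With the replicate number as a block, 3 members were called in iBAT at 10 °C, 1 in bone marrow (*Abhd5*) and 0 between ingSAT and iBAT. The replicate numbers did not pair the libraries by the correlation of their deviations, so they share only a number.

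Leaving out 1 library gave 1 to 2 members called in iBAT at 10 °C, 2 to 4 in ingSAT, 0 to 3 in quadriceps at 10 °C, 5 to 5 in iBAT at 34 °C and 0 to 0 in the other comparisons run, and 0 to 2 between ingSAT and iBAT, 0 to 5 between pgVAT and iBAT and 0 to 3 between pgVAT and ingSAT. Bone marrow, with 6 per group, was not run. The *G0s2* to *Pnpla2* difference ranged from -1.39 to -0.85 in iBAT at 10 °C, 0.64 to 1.27 in ingSAT, 0.47 to 1.19 in pgVAT and 0.19 to 0.47 in iBAT at 34 °C. The *Cidea* to *Cidec* difference ranged from -0.34 to 0.09, 3.05 to 3.42, -0.77 to 1.94 and 0.1 to 0.31 in the same order. With 3 libraries a group, members with large spread (*Cidea* in pgVAT, standard error 1.19) could not be resolved.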
